A study of Sus scrofa with 4 samples.

Results

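The ligands of gamma chain receptors examined here were the interleukins IL2, IL4, IL7, IL15 and IL21. They were measured in pig spleen with 1-colour Agilent arrays. Members were all non-control probes named by a pig RefSeq transcript of 1 of these genes, which gave 6 probes for 5 genes out of 3020 genes that could be named. IL15 had 2 probes and the other 4 genes had 1 probe each. The series held 4 arrays of spleen RNA from Minnesota miniature swine. The WT group was wildtype animals (3 arrays, WT 1 to WT 3). The group named KO here, after the usage of the study, was 1 array with the genotype IL2RG +/-, in which 1 copy of the gamma chain gene had been disrupted with a TALEN, a designed nuclease. The KO animals were cloned by nuclear transfer from targeted cell colonies, so they descend from few cell clones, and the study arrayed those that had kept a rudimentary thymus. The labels give no age and no treatment. They do not say that the WT arrays came from separate animals, so the p-values below measure the spread between these arrays only.

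The gamma chain, encoded by IL2RG, is shared by the receptors of these cytokines, which signal through the kinases JAK1 and JAK3 and through STAT transcription factors. IL2 is made mainly by activated T cells and drives their expansion. IL7, made by stromal cells, is needed for T cell development and survival, whereas IL15, shown to T and NK cells by macrophages and dendritic cells, sustains NK cells and memory CD8+ T cells. IL4 drives B cell class switching and type 2 responses, and IL21, made by helper T cells, acts on B cells and plasma cell formation. The spleen is bulk tissue, so fewer cells of a type and less RNA per cell cannot be told apart in any value below.

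Signals are the processed, background-corrected signals of the scanner software. Levels are log2 signals after subtraction of the array's 75th percentile, so that 0 stands for that percentile, and levels of different probes are not compared. That percentile lay between a signal of 640 and 820. WT 1 and KO shared slide 1, and WT 2 and WT 3 shared slide 2. Between 66.1% and 72.7% of spots were well above background, the software's flag for a signal clear of local background. The lowest signals that carried this flag were 14.6, 18.0 and 15.4 on WT 1 to WT 3 and 11.5 on KO. Slide 2 carried far more red cell and platelet signal than slide 1: KLF1, the erythroid factor, had levels of -4.68 (WT 1) and -3.17 (KO) on slide 1 but 4.06 (WT 2) and 4.38 (WT 3) on slide 2. Of the spleen markers, CD5L and HMOX1 could be named and both were well above background on all 4 arrays. The B cell markers MS4A1, CD79A and CD72 had KO minus WT differences of -4.92, -4.12 and 1.49.

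Both IL15 probes and the IL7 probe carried the flag on all 4 arrays, so 2 of 5 genes did, beside 81.9% of the probes tested. The IL2 probe was well above background on WT 2 and KO, the IL4 probe on WT 3 and KO, and the IL21 probe on KO alone. All 5 genes were therefore among the 33464 probes tested, which were well above background on at least 1 array, but IL21 entered through the KO array only. No member spot was saturated or marked as an outlier. Against the WT range, KO lay above all 3 WT arrays for 3 of 5 genes (IL4, IL15 and IL21), as it did for 27% of all probes tested. It lay within the WT range for IL2 and IL7 and below it for 0 of 5, beside 34.9% of all probes. KO was higher than the WT mean for 4 of 5 genes, against 43.1% of all probes. KO was at least 2-fold above the WT mean for IL15, and by the fitted values for IL4, against 7.71% of all probes tested, and at least 4-fold above it for IL15, against 1.72%. IL21 had no WT spot well above background and gives only the rough lower bound below, and IL4 had 1, so these counts rest on few firm values.

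**Figure D1:**
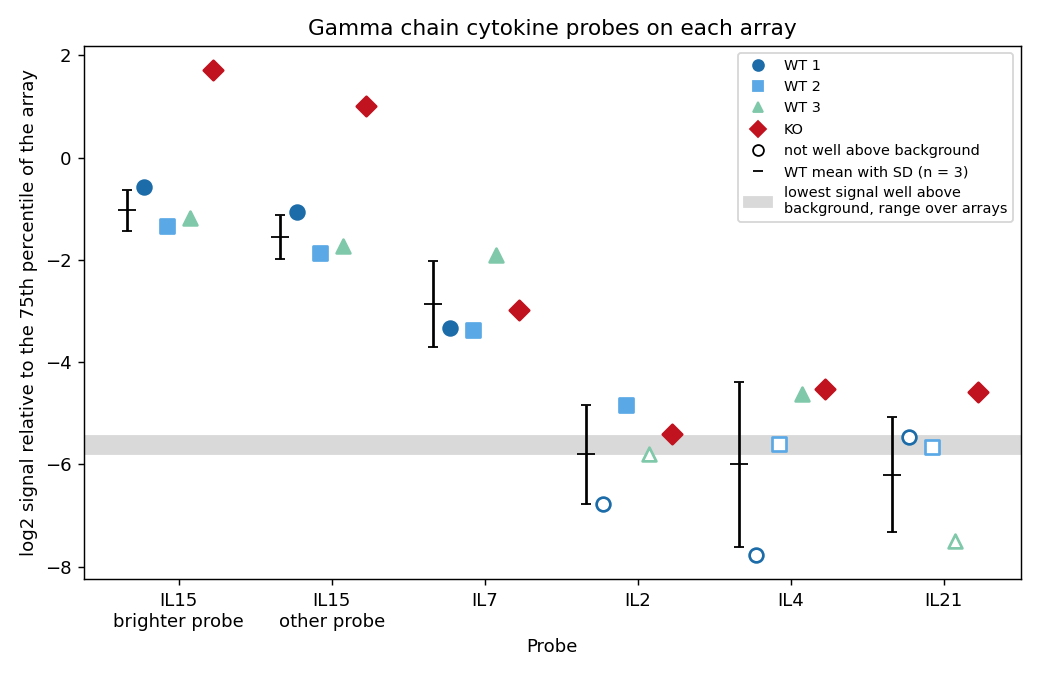
Level of each gamma chain cytokine probe on each array, as log2 signal after subtraction of the array's 75th percentile (y axis), with probes on the x axis. Filled points were well above background and open points were not, black bars give the WT mean with its SD (n = 3), and the grey band spans the lowest signal well above background on the 4 arrays. KO stands above all WT points on both IL15 probes, within them for IL7 and IL2, and only just above WT 3 for IL4. Heights of different probes are not comparable.

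IL15 showed the clearest separation of the members. On the brighter probe (A_72_P580842) WT 1, WT 2 and WT 3 gave processed signals of 431, 322 and 360 and KO gave 2113, with software errors of 43.3, 32.5, 36.2 and 211. On the log2 scale the levels were -0.57, -1.34, -1.19 and 1.71. KO was thus the highest array by a wide margin, and the groups did not overlap. The WT mean was -1.03 ± 0.41 (SD, n = 3), and KO exceeded it by 2.74 (SE 0.43, 95% interval from 1.55 to 3.93). This is a 6.70-fold difference in geometric means. Limma did not call it after adjustment over all probes (adjusted p = 0.315, unadjusted p = 0.00316), and 0 of 33464 probes (0%) passed an adjusted p of 0.05 with a 2-fold difference. At an unadjusted limma p under 0.05, IL15 was the only member gene, beside 5.33% of all probes that met this with KO higher, and 0 members met it with KO lower, beside 5.95%. A difference at least as high was found for 0.708% of probes.

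The second IL15 probe (A_72_P035856), named by the same transcript, gave a similar picture. WT 1, WT 2 and WT 3 gave signals of 307, 223 and 247 and KO gave 1295. The WT level was -1.56 ± 0.43 (SD, n = 3) and the KO level 1.00, a difference of 2.56 (SE 0.44, limma, adjusted p = 0.342). The gap between the probes was 0.49, 0.53 and 0.54 on WT 1 to WT 3 and 0.71 on KO, and both probes ordered the arrays alike. They are named by 1 transcript and are not independent evidence. RefSeq lists 9 transcripts for the gene, and which of them each probe can bind was not determined here.

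Against single WT arrays, the brighter IL15 probe was 4.86-fold higher on KO than on WT 1 of the same slide, 8.30-fold higher than on WT 2 and 7.46-fold higher than on WT 3. The other probe gave 4.19-fold, 7.34-fold and 6.66-fold. Both probes were at least 4-fold above each WT array, which held for 0.792% of all probes tested, and a 4-fold excess over WT 1 alone held for 2.02%. Among WT arrays the brighter probe was 1.71-fold higher on WT 1 than on WT 2 and 1.11-fold higher on WT 3 than on WT 2. The gap between KO and the nearest WT array was thus larger than any gap among WT arrays. The spread between KO animals is not known from 1 array, and an exact permutation test over 4 arrays cannot give a p below 0.25.

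**Figure D2:**
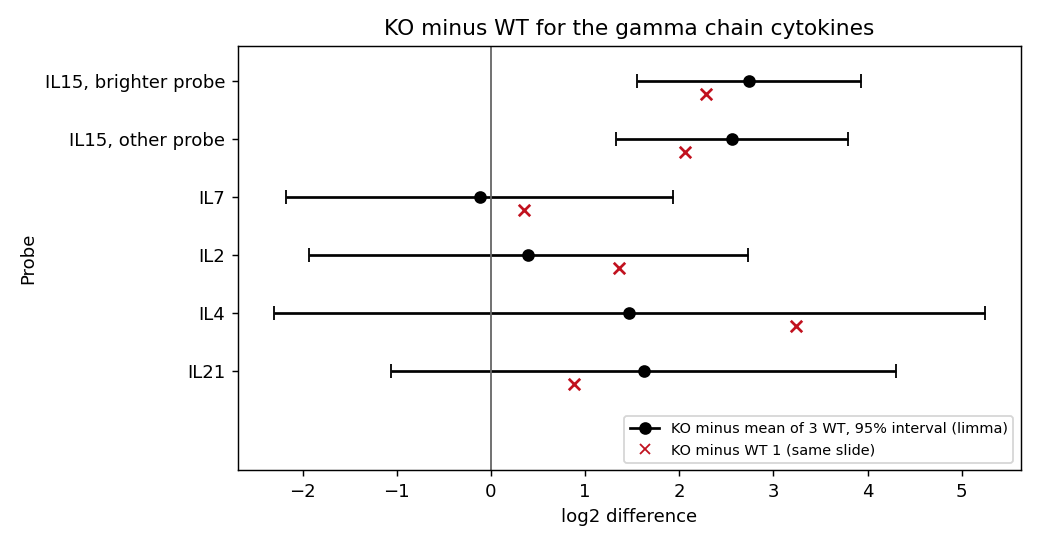
Log2 difference between KO and WT (x axis) for each probe (y axis). Black points give KO minus the mean of 3 WT arrays with the 95% interval of limma, and red crosses give KO minus WT 1, the array on the same slide. The intervals of both IL15 probes lie above 0 before any adjustment, from 1.55 to 3.93 and from 1.32 to 3.79, while those of IL7, IL2, IL4 and IL21 span 0. The WT 1 spots of IL2, IL4 and IL21 were not well above background, so their crosses are not measured differences.

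IL7, the stromal survival factor of T cells, did not separate the groups. WT 1, WT 2 and WT 3 gave signals of 63.4, 79.2 and 219, and KO gave 81.3. WT 3 stood apart, and KO lay next to WT 1 and WT 2. The levels were -3.34, -3.37 and -1.90 in WT (mean -2.87 ± 0.84, SD, n = 3) and -2.99 in KO. The difference was -0.12 (SE 0.74, 95% interval from -2.18 to 1.94, limma, adjusted p = 0.956), so the interval spanned a 2-fold change in both directions. Its sign turned without WT 3, to 0.36, and within slide 1, where KO was 0.35 above WT 1. The gap of 1.46 between WT 3 and WT 2, arrays of 1 slide, was reached in the same direction by 1.82% of all probes tested.

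IL21 was well above background on KO only. WT 1, WT 2 and WT 3 gave signals of 14.5, 16.2 and 4.55 and KO gave 27.0, with software errors of 3.95, 5.19, 4.55 and 3.90. The 3 WT values therefore set only an upper limit. That limit was the lowest flagged signal or the probe's own value where higher. Against it KO was 1.98-fold higher, and 1.83-fold higher than WT 1 alone. The limit leaves out the software errors, so these are rough lower bounds. The fitted difference was 1.62 with a 95% interval from -1.06 to 4.30 (limma, adjusted p = 0.572). Before background correction the median pixel signals of the spot were 73, 81 and 66 on WT 1 to WT 3 and 80 on KO. The raw KO value was thus not the highest, but these values are not scaled between arrays of different brightness.

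IL4 carried the flag on KO and WT 3. WT 1, WT 2 and WT 3 gave signals of 2.93, 16.8 and 33.2 and KO gave 27.9, with software errors of 2.93, 4.14, 4.63 and 3.70. The WT 1 signal was no larger than its own error. WT 3 and KO, the arrays that carried the flag, differed by a log2 value of 0.09 after scaling. The WT level was -6.00 ± 1.61 (SD, n = 3), which includes 2 spots not well above background, against -4.53 on KO. Limma gave a difference of 1.47 with a 95% interval from -2.31 to 5.25 (adjusted p = 0.684). Without WT 1 the difference was 0.58, and without WT 3 it was 2.16. The raw median pixel signals, unscaled between arrays, were 61, 102 and 115 on WT 1 to WT 3 and 84.5 on KO. KO thus lay within the WT range before correction and scaling. The corrected signal of KO also lay below that of WT 3, and KO stood above WT 3 only after scaling.

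IL2, the T cell growth factor, was also near the detection limit. WT 1, WT 2 and WT 3 gave signals of 5.86, 28.3 and 14.8 and KO gave 15.2. WT 2 was the highest and WT 1 the lowest array, and KO lay between them. The similar signals on WT 3 and KO carried different flags, and the lowest flagged signals of these arrays were 15.4 and 11.5. The WT level was -5.81 ± 0.96 (SD, n = 3) and the KO level -5.41, and the difference of 0.40 had a 95% interval from -1.93 to 2.73 (limma, adjusted p = 0.859). Without WT 1 it was -0.09. The interval spanned a 2-fold difference in both directions. In the RefSeq gene table of Sscrofa11.1, IL2 and IL21 are neighbours with 0 genes listed between them.

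The study also read some of these transcripts by RT-qPCR. The primers for the 3 dim members are given, written 5′ to 3′, because they identify a second assay of transcripts for which the arrays left mostly limits. No PCR value is used here.
IL2 forward: acctcaactcctgccacaat
IL2 reverse: tgaagtaggtgcaccgtttg
IL4 forward: gcatgtaccagcaacttc
IL4 reverse: ctgtgagaatgttcaaggtt
IL21 forward: gcccataaatcaagcttcca
IL21 reverse: cagcaattcagggtccaagt

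Of the related ligands, IL9, which also binds a gamma chain receptor, and IL13, which shares a receptor chain with IL4, had 1 named probe each. Both probes were well above background on 0 of 4 arrays and were not tested.

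Receptor chains were read next. Of 10 genes listed, 5 could be named and were tested, 3 higher and 2 lower on KO, with a median difference of 0.44 beside -0.11 over all probes tested. None passed adjustment, a count of 0, and 2 had an unadjusted limma p under 0.05, both with KO higher. These were IL4R, the binding chain for IL4, and IL13RA1, its partner in the type II IL4 receptor. IL4R had levels of -0.83, -1.09 and -1.43 on WT 1 to WT 3 and 0.57 on KO, a difference of 1.69 (SE 0.36, limma, adjusted p = 0.387). IL13RA1 varied little in WT, at -1.95 ± 0.04 (SD, n = 3), and stood at -0.74 on KO, a difference of 1.21 (limma, adjusted p = 0.388). KO was above all WT arrays for both genes, beside 27% of all probes tested. IL2RG itself, the targeted gene, was the lowest on KO, at -1.98 on its brighter probe against -1.21 ± 0.49 in WT (SD, n = 3; difference -0.77, limma, adjusted p = 0.578). Its other probe, which was not the one counted, differed by -2.12, with KO lower (limma, unadjusted p = 0.0167, adjusted p = 0.403). For the receptors of IL7 and IL2, IL7R differed by 0.44 on its brighter probe and IL2RA by -0.21, both with KO within the WT range. The list median of 0.44 is the value of this IL7R probe. The other IL7R probe, flagged on all 4 arrays but not counted, differed by -0.04, so the median depends on the choice of probe. The sign of the brighter IL7R probe turned within slide 1, to -0.11, and the IL2RA spot on WT 1 was not well above background.

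All 6 tested JAK and STAT genes, of 7 listed, had KO above every WT array, beside 27% of all probes tested. Their median difference was 1.09. None passed adjustment, a count of 0, and 3 had an unadjusted limma p under 0.05. STAT3, used by IL21, had levels of -1.22, -1.27 and -1.65 on WT 1 to WT 3 and 0.15 on KO, a difference of 1.53 (limma, adjusted p = 0.387), and STAT5A, used by IL2, IL7 and IL15, differed by 1.31 (limma, adjusted p = 0.410). Within slide 1 these differences were 1.37 and 1.11. The differences of STAT6, the factor of IL4, JAK1 and STAT5B were 0.87, 0.57 and 0.37.

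Of 18 feedback and target genes, 8 were tested, 5 higher and 3 lower on KO, with a median of 0.19. Adjusted limma calls numbered 0, and 2 genes had an unadjusted p under 0.05. IFNG, interferon gamma, which IL15 can induce in NK cells, differed by 3.65 (limma, adjusted p = 0.432), with WT levels from -4.63 to -1.80 and a KO level of 0.38. SOCS3, a feedback inhibitor of STAT3 signalling, differed by 1.32 (SE 0.26, adjusted p = 0.377). GZMB, a killing protease of NK and CD8+ T cells, differed by 0.81 (adjusted p = 0.771), whereas KO minus WT 1 was -0.65. For IFNG, KO minus WT 1 was 2.19, and WT 1 was the highest WT array. Quantile normalisation turned the sign of the median of this list, to -0.04. ARG1, a target of IL4 in macrophages, had levels of 0.15, 6.06 and 5.86 on WT 1 to WT 3 and 4.31 on KO.

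Transcription factors that act on cytokine genes were listed with 16 genes, of which 9 were tested, 8 higher and 1 lower on KO, with a median of 0.47. None passed adjustment, a count of 0, and 2 had an unadjusted limma p under 0.05. IRF1, a factor known to activate IL15, had levels of 3.78, 3.21 and 2.97 on WT 1 to WT 3 and 5.28 on KO, a difference of 1.96 (limma, adjusted p = 0.388). NFKB1 differed by 1.49 (adjusted p = 0.431) and FOS by 0.54 (adjusted p = 0.523). The T cell factors NFATC2, GATA3 and FOXP3, which act on IL2 and IL4, differed by 0.47, 0.37 and -0.08. KO lay within the WT range for all of them. The FOXP3 probe was near the detection limit and flagged on 3 of 4 arrays, and the other probes of FOXP3 on 0 of 4. Over the array as a whole, 11.3% of probes had an unadjusted limma p under 0.05, against 2 of 5, 3 of 6, 2 of 8 and 2 of 9 genes of these lists.

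**Figure D3:**
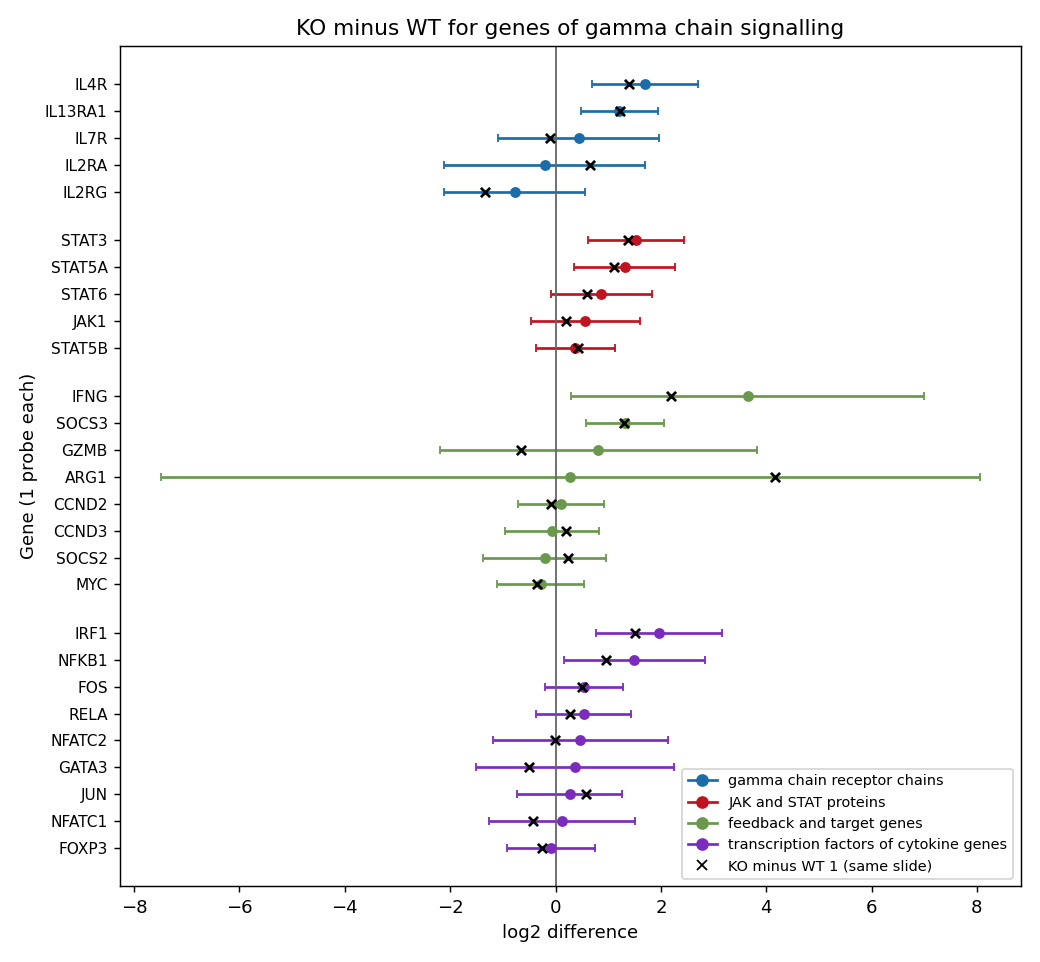
Log2 difference between KO and WT (x axis) for tested genes of 4 pathway lists (y axis, 1 probe a gene, colour by list). Points give KO minus the mean of 3 WT arrays with the 95% interval of limma, and crosses give KO minus WT 1 on the same slide. The JAK and STAT genes drawn all lie to the right of 0, whereas IL2RG lies to the left and ARG1 spans from below -7 to above 8. The IL2RA spot on WT 1 was not well above background.

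Markers of cells that make or present these cytokines were summed over their tested genes, in multiples of the 75th percentile signal. Macrophage markers (7 of 11 tested) summed to between 393 and 574 in WT and to 932 on KO. KO was above every WT array for all 7, beside 27% of all probes tested. The median difference of these markers was 3.08, or 2.04 within slide 1. Dendritic cell markers (3 of 8) summed to between 5.28 and 13.2 in WT and 12.9 on KO, with a median of 1.06. T cell markers (8 of 13) summed to between 24.4 and 75.6 in WT and 38.5 on KO, with a median of 0.16 and 5 higher and 3 lower. NK cell markers (3 of 8) summed to between 7.93 and 34.1 in WT and 22.8 on KO, with a median of -0.34. KO was above every WT array for 1 NK marker and below every WT array for 1, beside 27% and 34.9% of all probes tested. Within slide 1 the medians were -0.21 for T cell markers and -1.28 for NK cell markers. Stroma markers (4 of 10) summed to between 120 and 147 in WT and 168 on KO, with a median of 0.18 and 2 higher and 2 lower. KO was above every WT array for 2 stroma markers and below every WT array for 1, beside the same shares of all probes. A sum follows its brightest genes, so the stroma sum does not describe each marker. Mast cell markers (2 of 5) summed to between 6.64 and 10.9 in WT and 8.07 on KO, with a median of 0.79. Macrophage markers were thus higher on KO, as IL15 was, and so were the dendritic cell markers CD80 (1.06) and CD86 (1.31). XCR1, the other dendritic cell marker tested, differed by -0.39, with KO within the WT range. The part of these cells in the IL15 difference was not tested. The T cell sums of WT and KO overlapped, as did the IL2 values.

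For the members measured on every array, the genes of most similar profile were sought among 2431 other named genes, by Euclidean distance between levels over 4 arrays, each gene centred on its mean. The nearest to IL15 were SLC7A9 at a distance of 0.16, STX11 at 0.19 and ADM at 0.23. SLC7A9 encodes an amino acid transporter subunit, STX11 a syntaxin needed for granule release in cytotoxic lymphocytes, and ADM the vasodilator peptide adrenomedullin. Their KO minus WT differences were 2.71, 2.92 and 2.65. The nearest to IL7 were IL13RA2 at 0.39, MET at 0.41 and ID1 at 0.41, so the fit was looser. All 3 shared the high value on WT 3, as for MET, the receptor of hepatocyte growth factor, at -4.62, -4.30 and -3.36 on WT 1 to WT 3 and -4.39 on KO. These distances describe 4 arrays and carry no test. The genes were picked for likeness on these same arrays, so their shared peaks and similar differences follow from the selection.

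**Figure D4:**
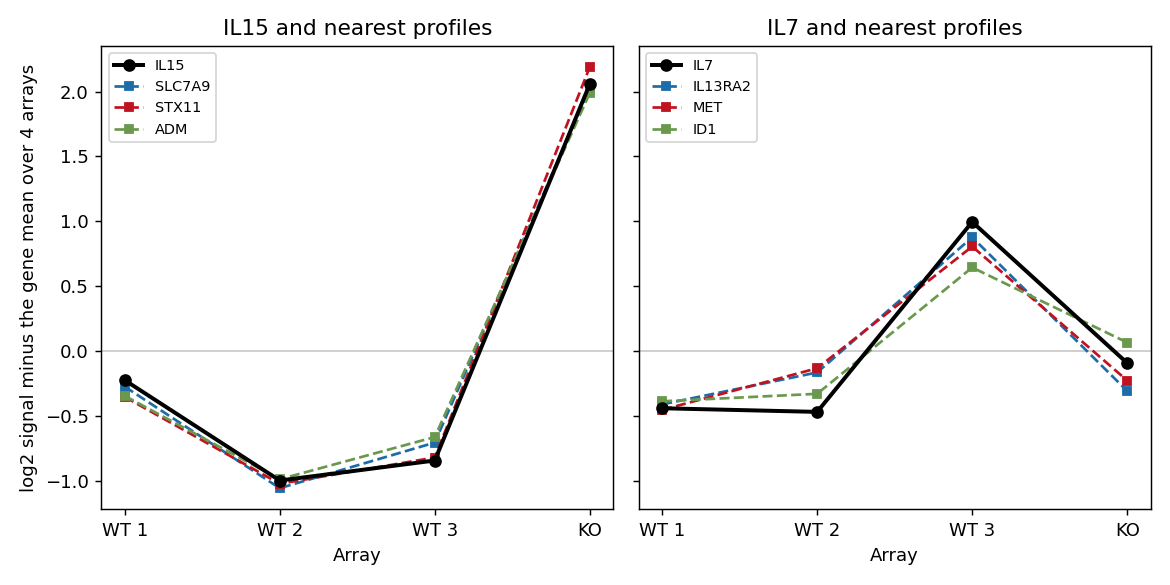
Levels of IL15 (left) and IL7 (right) with the 3 named genes of nearest profile, as log2 signal minus the gene's mean over 4 arrays (y axis) on each array (x axis). The IL15 group peaks on KO, with IL15 differing from the WT mean by 2.74, and the IL7 group peaks on WT 3. The shared peaks follow from the selection of genes on these same arrays.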

How the data were processed

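Total RNA of spleen was amplified from 200 ng, labelled with Cy3 and hybridised by the authors, 1 sample an array. The deposited intensity values were read with Agilent Feature Extraction (version 11.0.1.1 in the submitters' processing notes) and are, per the file headers, background-corrected processed signals without scaling between arrays. The methods of the study mention a dye pair, whereas the file headers list 1 channel. The deposited log2 table of the authors held 27421 probes and was used as an alternative only.

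Outlier spots were left out (28 probes), signals were log2-transformed and scaled by subtracting the array's own 75th percentile, and replicate spots were averaged per probe. Probes well above background on at least 1 array were fitted with limma 3.58.1 in R 4.3.3 (lmFit, eBayes, two-sided), KO against WT, with Benjamini-Hochberg adjustment over 33464 probes. The threshold was an adjusted p of 0.05 with a 2-fold difference. The fit had 2 residual degrees of freedom, which come from WT, and 1.93 prior degrees of freedom. KO, with 1 array, was taken to have the spread of WT. The fitting script was tested on simulated data. The number of arrays limits precision. The probe with the highest mean stood for a gene. Names came from RefSeq transcripts of Sscrofa11.1, which matched 6686 of 43603 probes (15.3%), so list genes such as IL2RB, JAK3, IL15RA and IL21R were not analysed here. No coordinates or probe sequences are given, since the files name no build and hold no sequence.

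The members and lists were chosen with earlier results of these data known. Named list genes were the 3 with the largest difference in each list among those well above background on at least 3 arrays, plus IL2RG. Some list genes that entered the counts and medians are not reported here by name. Other genes were named after their values were seen. Tables were read and drawn with Python 3.11.15, pandas 2.3.3, numpy 2.4.6 and matplotlib 3.10.9.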

Additional observations from a re-analysis of the deposited data

How the results depend on the processing

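The alternatives were planned, except that normexp used the median signal because no mean signal is in the files used here. Counts of probes called were 0 in 13 of 16 alternatives, 4 under normexp, 6 with an eBayes trend and 1333 by the methods' t-test without adjustment, which had 0 after Benjamini-Hochberg adjustment. Why normexp and the trend made calls was not tested. The IL15 difference kept its sign in 15 of 15 alternatives, some of which change only the test or the filter and so cannot change it. This difference lay between 2.28 with the slide as a block and 2.99 under the median shift. Its adjusted limma p ranged from 0.0737 without WT 1 to 0.980 without WT 2. The methods' t-test on 2.74 gave an unadjusted p of 0.0283, and 1 after Bonferroni adjustment.

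IL4 and IL21 kept their signs in 12 of 12 alternatives each, but those that change only the test or the filter cannot change a difference. IL21 passed the filter through its KO spot alone, which favours a positive sign, so its count is no support. The lowest differences were 0.22 (IL4) and 0.41 (IL21) under normexp, whose offset of 50 draws dim probes together. The highest for IL4 was 3.24, with the slide as a block, where its WT 1 spot was not well above background. For IL21 the highest was 2.00, without WT 1. Leaving out a WT array gave 0.58 to 2.16 for IL4, 0.98 to 2.00 for IL21, 2.59 to 2.98 for IL15, -0.086 to 0.87 for IL2 and -0.37 to 0.36 for IL7. IL2 was -0.086 without WT 1. IL7 turned to 0.10 under quantile normalisation, 0.13 under the median shift, 0.081 in the deposited table, 0.35 with the slide as a block and 0.36 without WT 3, the array that stood apart. IL2, IL4 and IL21 have no value in the deposited table or under the filter that asks for the background flag on all 4 arrays. The median difference over all probes, -0.11 in the report, became -0.02 (quantile normalisation), 0.14 (median shift) and -0.22 (percentile over probes flagged on every array).

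The receptor median became 0.64 (quantile), 0.68 (median shift), 0.65 (slide block, the value of IL2RA, whose WT 1 spot was not well above background) and 0.13 to 0.71 without a WT array. The JAK and STAT median became 1.34 (median shift) and 0.86 (slide block). The feedback and target median became -0.040 (quantile), 0.44 (median shift), 0.080 (percentile over probes flagged on every array) and -0.00015 to 0.25 without a WT array. The causes were not tested. The transcription factor median lay between 0.27 and 0.72 in 8 alternatives. The labels match no WT animal to the KO animal, so no paired analysis of animals was made. The slide, shared by KO and WT 1, was used only as a block.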
